A study of Homo sapiens with 6 samples.

Results

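Mitochondrial ribosomal proteins were taken as every gene of the deposited table whose symbol is MRPL or MRPS followed by a number. The rule found 78 of 20289 genes, 49 named as large subunit proteins (MRPL) and 29 named as small subunit proteins (MRPS), and it used no measured value. All 78 passed the filter on low counts and were tested. RNA was sequenced in 6 libraries labelled as T24, an established human bladder cancer cell line grown in RPMI 1640 with fetal bovine serum. By lipofection, 3 libraries received the pcDNA3.1 plasmid without an insert (labelled Vector, the control) and 3 the same plasmid with LINC00665, an intergenic long non-coding RNA, to overexpress it (labelled LINC00665). The libraries came from 3 independent experiments by the series' design text, all cells belonged to 1 line by their labels, and the stated question was how LINC00665 acts in lymph node metastasis. The level of LINC00665 itself was not analysed here.

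The mitochondrial ribosome translates the few proteins encoded by mitochondrial DNA, all of them subunits of the respiratory chain or of ATP synthase. Its large subunit forms the peptide bond and its small subunit decodes the mRNA. The ribosomal RNA is transcribed inside the organelle, whereas every protein is encoded in the nucleus, translated in the cytosol and imported. Some of these proteins have a counterpart in bacterial ribosomes and others occur only in mitochondria. The names do not follow the structure throughout, since the products of MRPS18A and MRPS30 sit in the large subunit and that of MRPS36 is an adaptor of the 2-oxoglutarate dehydrogenase complex and no ribosomal protein.

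Expected counts summed to between 17289788 and 22725687 per library. When the labelled line was checked, 3 of the 6 libraries failed to match it, so groups are named by their labels, and the plasmid and the line cannot be told apart. The 12 markers of urothelial and other epithelial cells summed to between 1067 and 3380 CPM (expected counts divided by the library total, on the usual scale of counts-per-million) in the libraries labelled Vector and to between 9272 and 10219 CPM in those labelled LINC00665, with UPK3A at 0 in the former. The 7 kidney tubule markers summed to between 356 and 476 CPM and to between 13.0 and 14.9 CPM, with CDH6 and EMX2 at 0 in all Vector libraries and CDH16 at 0 in all LINC00665 libraries. The part of these differences in the results below was not tested. In RNA from bulk cultures, fewer cells of a type and less RNA per cell cannot be told apart.

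Short promoter sequences are shown first, because a short string that the rule did not use was more frequent among the members than among all genes with a promoter. RefSeq promoters (GRCh38.p14, 250 bases before to 50 bases after the annotated start) were matched for 69 of the 78 members. The string AAGATGGC is the core recognised by the zinc finger factor YY1. It or its reverse complement GCCATCTT occurred for 21 of the 69 members (30.4%) against 725 of the table's 15190 genes with a promoter (4.77%). A gene was counted if any of its promoters held the string. In 17 members the string was on the strand of the gene, and in 16 of these it lay within the 50 bases after the start. It contains ATG, and in 13 of the 17 members that ATG was an annotated start codon in GENCODE release 29, so in these genes the string spans the start of the reading frame. This check of the start codon was added after the positions were seen. The windows below cover 30 bases on the strand of the gene, with AAGATGGC in capitals, for members that were lower, higher and near no change.

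MRPL51, chr12:6493223-6493252, minus strand, lower: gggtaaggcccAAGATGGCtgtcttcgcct

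MRPL50, chr9:101398577-101398606, minus strand, lower: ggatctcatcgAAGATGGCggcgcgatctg

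MRPS7, chr17:75261887-75261916, plus strand, lower: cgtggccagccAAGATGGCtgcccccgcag

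MRPS10, chr6:42217834-42217863, minus strand, lower: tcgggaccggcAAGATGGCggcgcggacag

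MRPL46, chr15:88467362-88467391, minus strand, lower: tgggagaacgaAAGATGGCggcgcccgtaa

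MRPS24, chr7:43869480-43869509, minus strand, higher: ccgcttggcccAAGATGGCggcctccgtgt

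MRPS30, chr5:44808949-44808978, plus strand, higher: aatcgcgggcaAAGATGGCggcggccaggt

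MRPL49, chr11:65122333-65122362, plus strand, higher: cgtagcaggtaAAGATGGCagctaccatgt

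MRPS18A, chr6:43687764-43687793, minus strand, not past the threshold: gtaggtttttgAAGATGGCggccctcaagg

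MRPL38, chr17:75904860-75904889, minus strand, not past the threshold: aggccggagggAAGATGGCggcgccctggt

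The members with the string did not move in 1 direction. The calls here are those of the test given below, and stand beside 34.2% higher and 29.3% lower of all 13552 genes tested. Of the 21 members with AAGATGGC on either strand, 4 were higher and 6 lower, with a median log2 fold change of -0.28. The 48 members without it included 6 higher and 17 lower genes, with a median of -0.33. CCGGAAGT is the core bound by ETS factors such as GABP. It was found on either strand for 12 of 69 members (17.4%) against 7.13% of all genes with a promoter. Of those 12 members 2 were higher and 3 lower. GCATGCGC, the core of the site of nuclear respiratory factor 1 (NRF1), occurred in 6 of 69 (8.70%) against 4.90%, with 1 of the 6 higher and 0 lower. These are matches of letters in a window and show no binding.

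Of the 78 members, 40 passed the threshold between the labels (51.3%), beside 63.5% of all 13552 genes tested. The test was edgeR's quasi-likelihood test, with a Benjamini-Hochberg adjusted p under 0.05 over all genes tested. A log2 fold change is given as LINC00665 over Vector on the trimmed-mean scale. Higher levels under LINC00665 were called for 12 members (15.4%), beside 34.2% of all genes, and lower levels for 28 (35.9%), beside 29.3%. The median log2 fold change of the members was -0.33, and that of all genes 0.03. Scaling by total counts moved the median of all genes by -0.16 and the members' split to 7 higher and 39 lower. Thus 15.2% of the members' calls were higher in place of 30%, while over all genes 46.7% of the calls were higher in place of 53.8%. On the authors' FPKM, fragment counts scaled by gene length and library size, the split was 9 higher and 37 lower (19.6% higher). Over all genes 49.2% of the calls on FPKM were higher. The median of all genes was then -0.07 on log2(FPKM + 1) and -0.08 on log2(FPKM + 0.1). The higher calls of MRPL10, MRPL16, MRPL21, MRPL32 and MRPL49 were lost on total counts. With DESeq2's Wald test on the same counts, 40 of the 40 calls were kept, and 29 of the 40 held under all 16 alternative fits, which include DESeq2 and those without 1 library.

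The changes of the members were small compared with the table. Their median absolute log2 fold change was 0.53, beside 0.82 over all genes, and 12 members (15.4%) were past the threshold with an absolute value of at least 1, beside 42.0% of all genes. Among the 10915 genes with at least 1 CPM in every library, which held all 78 members, the median absolute value was 0.64 and 57.3% were called, beside 0.47 and 50% for the members. The CPM ranges of the groups did not overlap for 50 members (64.1%), beside 71.3% of all genes. In a two-sided exact permutation test of log2(CPM + 1), those 50 gave 0.1, the smallest p that 3 against 3 libraries allow. Groups that do not overlap must give this value, so it adds nothing to the lack of overlap.

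**Figure D1:**
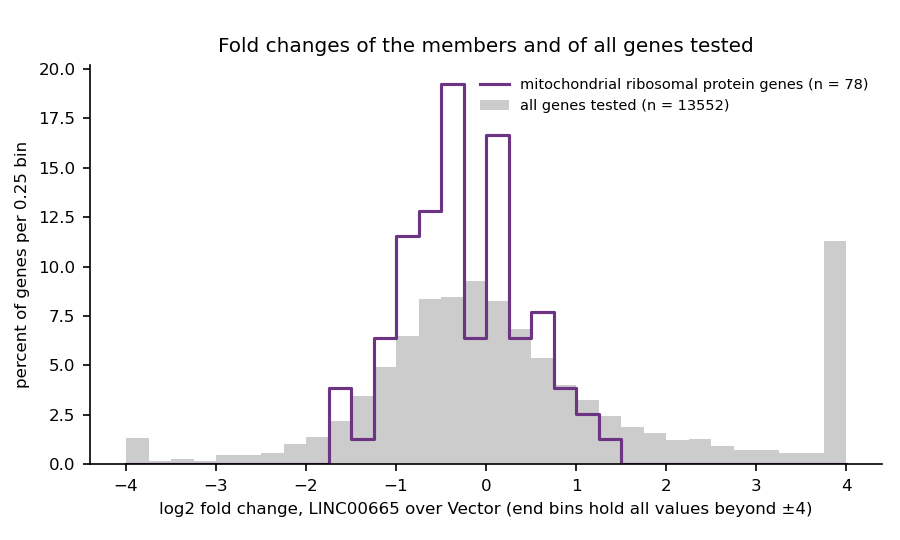
Share of genes in each 0.25-wide bin of log2 fold change, LINC00665 over Vector, for the 78 members (line) and all 13552 genes tested (grey bars), with values beyond 4 in either direction held in the end bins. The members lie between -1.64 and 1.47, with a median of -0.33, inside the wider spread of the table.

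Both subunits held more lower than higher genes, in shares to be read beside the 34.2% higher and 29.3% lower of all genes. By name, 8 of the 49 large subunit genes were higher (16.3%) and 16 lower (32.7%), with 25 not past the threshold and a median log2 fold change of -0.28. Its share of lower genes was thus near that of the table. Of the 29 small subunit genes, 4 were higher (13.8%) and 12 lower (41.4%), with 13 not past the threshold and a median of -0.37. The count of 8 fell to 5 without the library Vector 1, to 5 without LINC00665 1, to 3 without LINC00665 2 and to 4 without LINC00665 3, and to 3 with total-count scaling. With each protein placed by the structure of the human mitochondrial ribosome, the large subunit had 9 of 51 genes higher and 16 lower, with a median of -0.05, and the small subunit 3 of 26 higher and 11 lower, with a median of -0.43. The difference between the subunits was not tested.

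Directions were also counted by class, bacterial counterpart or specific to mitochondria, again beside 34.2% higher and 29.3% lower of all genes. Of the 30 large subunit proteins with a bacterial counterpart, 5 were higher and 10 lower (33.3%), with a median log2 fold change of 0.00. The 21 classed as specific to mitochondria, MRPS18A among them although it is a paralog of bacterial S18, held 4 higher and 6 lower genes (28.6%), with a median of -0.28. In the small subunit, 2 of 17 genes with a bacterial counterpart were higher and 8 lower (47.1%), with a median of -0.49. These 17 include MRPS18B and MRPS18C, so the paralogs of S18 were not all classed alike. Another placement of them was not tried. Of the 9 specific to mitochondria, 1 was higher and 3 were lower (33.3%), with a median of -0.36. In 3 of the 4 classes the share of lower genes was near that of the table.

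**Figure D2:**
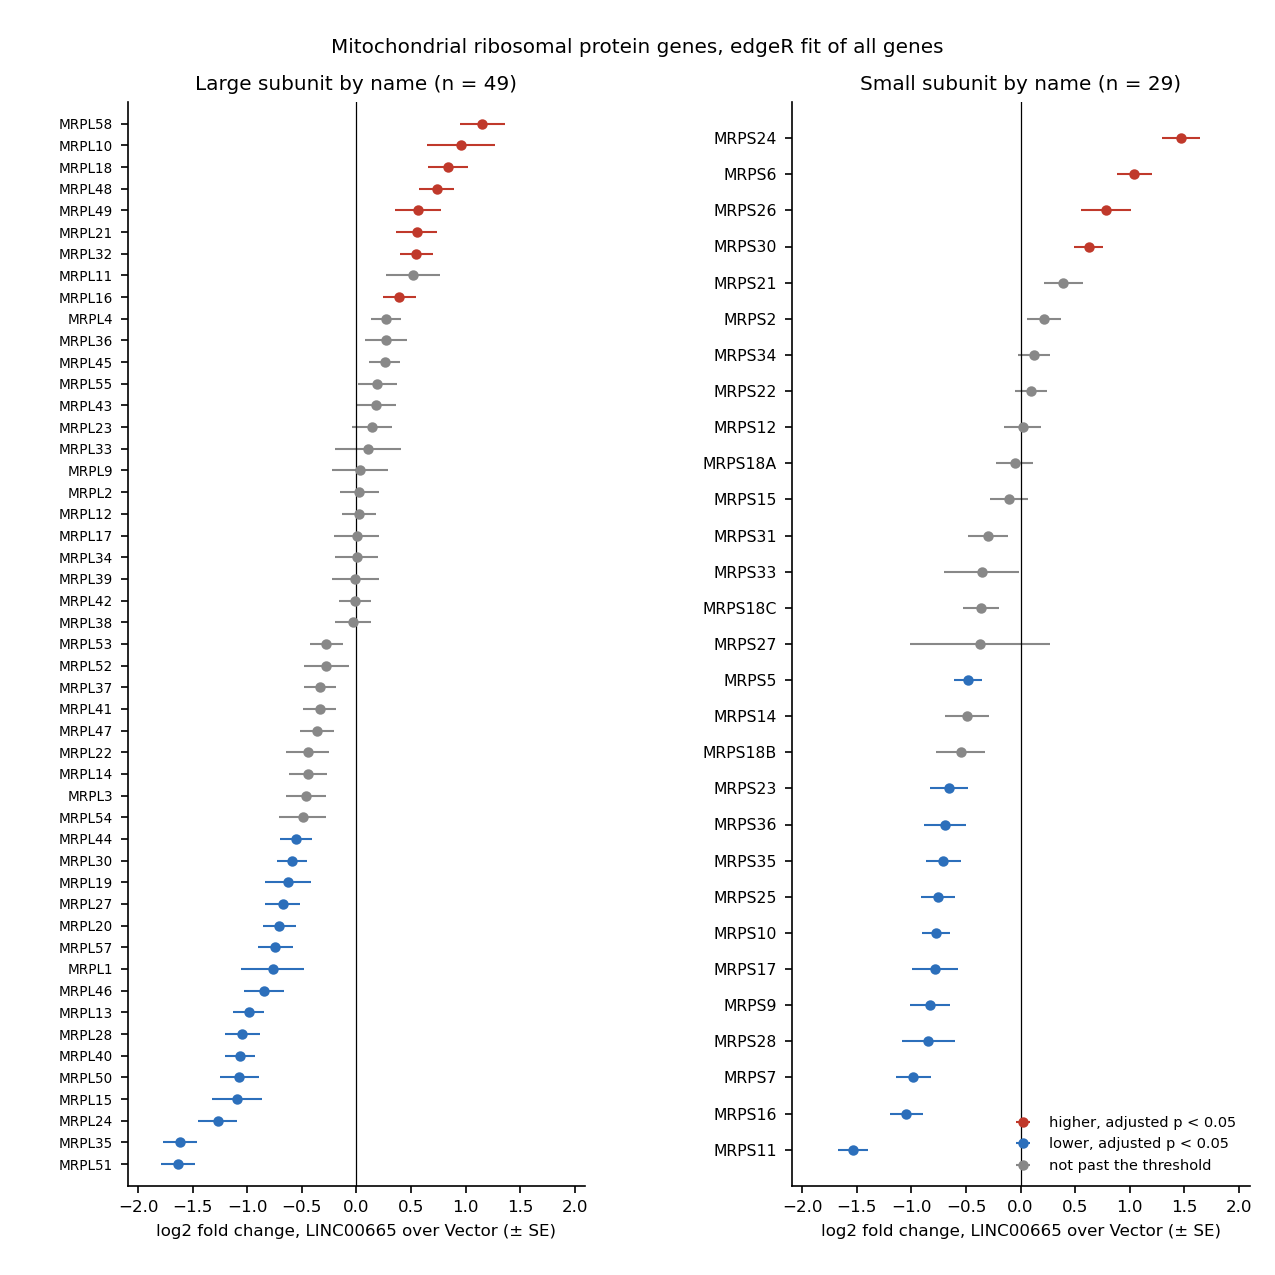
Log2 fold change (LINC00665 over Vector) with its standard error for each of the 49 genes named large subunit and the 29 named small subunit, ordered by value, with genes higher at an adjusted p under 0.05 in red, lower in blue and the rest in grey. MRPL51 at -1.64 and MRPL58 at 1.15 end the large subunit panel, MRPS11 at -1.54 and MRPS24 at 1.47 the small subunit panel, and MRPS27 has the widest error, 0.64.

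Summed over members, the share of counts was lower under LINC00665. The large subunit genes summed to 2722, 2494 and 2901 CPM in the libraries Vector 1 to 3 and to 1973, 2230 and 2039 CPM in LINC00665 1 to 3. The means were 2706 ± 204 and 2080 ± 134 CPM (SD, n = 3 each), a sum 23.1% lower, and every Vector library lay above every LINC00665 library. The small subunit genes summed to 1691, 1397 and 1877 CPM and to 1246, 1400 and 1231 CPM, with means of 1655 ± 242 and 1292 ± 93.2 CPM (SD, n = 3 each), and here Vector 2 lay just under LINC00665 2. All 78 members took 0.436% of the counts under Vector and 0.337% under LINC00665. This fall depended on the scale. On the trimmed-mean scale the sums of all 78 were 4120 ± 387 and 3572 ± 330 CPM (SD, n = 3 each), and the groups overlapped. There the large subunit sums overlapped too, at 2393 CPM in Vector 2 and 2428 CPM in LINC00665 2.

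The balance of large to small subunit counts did not separate the labels. The ratio of the summed CPM was 1.61, 1.78 and 1.55 in Vector 1 to 3 and 1.58, 1.59 and 1.66 in LINC00665 1 to 3, or 1.65 ± 0.12 and 1.61 ± 0.04 (SD, n = 3 each), with groups that overlapped. Vector 2 held the highest ratio, and it was also the library in which MRPS27 was at 23.0 CPM. Per length, the ratio of the summed FPKM was 2.01, 2.13 and 1.96 against 1.78, 1.78 and 1.81, so that all Vector libraries lay above all LINC00665 libraries (2.03 ± 0.088 and 1.79 ± 0.019, SD, n = 3 each). With MRPL51 and MRPS24 left out, a choice made after their values were seen, the FPKM ratios were 1.96, 2.06 and 1.90 against 1.98, 2.03 and 2.05, and the groups overlapped. These are the genes with the largest fall and the largest rise, and leaving out either of them alone was not tried.

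**Figure D3:**
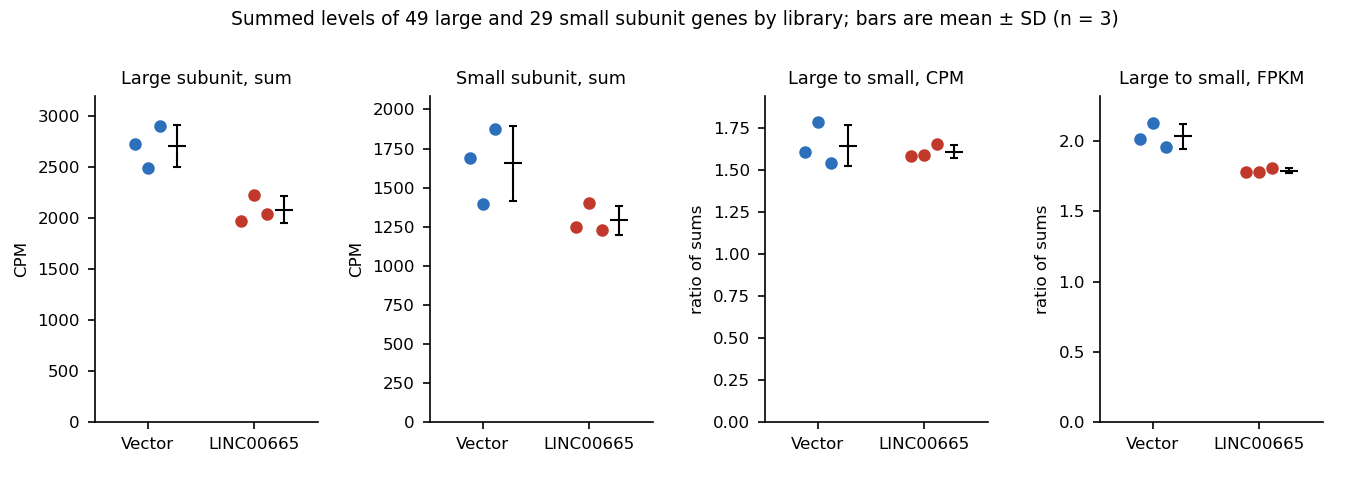
Summed CPM of the 49 large and the 29 small subunit genes and the ratio of the sums, in CPM and in FPKM, with 1 point per library and the mean ± SD (n = 3) beside it. The large subunit sums and the FPKM ratios separate the labels, whereas the small subunit sums and the CPM ratios overlap. On the trimmed-mean scale, not drawn here, the large subunit sums overlap too.

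Levels of different members were compared per length, in FPKM. Over the 6 libraries the mean FPKM ran from 4.0 for MRPL1, the counterpart of bacterial L1 at the exit side for tRNA, to 145 for MRPL37, a protein specific to mitochondria. After MRPL37 came MRPL51 at 124, MRPS15 at 114, MRPS24 at 107 and MRPL12 at 101 FPKM, and before MRPL1 at the low end came MRPL50 at 5.14 and MRPS36 at 7.87 FPKM. The top of the order changed with the label: MRPL51 was highest in all 3 Vector libraries (183, 194 and 201 FPKM) and MRPS24 in all 3 LINC00665 libraries (130, 182 and 145 FPKM). MRPL37 was next to MRPL51 under Vector, with 169 ± 21.1 against 193 ± 9.07 FPKM (SD, n = 3 each), and its highest library, at 194 FPKM, reached the range of MRPL51. Under LINC00665 the ranges of MRPL37 (112, 125 and 123 FPKM) and MRPS24 did not overlap. MRPL12 at 106 ± 7.88 and MRPS15 at 124 ± 18.2 FPKM under Vector overlapped (SD, n = 3 each).

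The FPKM order is not free of the authors' lengths. The length implied by CPM over FPKM was constant to within 2% for 35 members and changed by over 1.2 times between libraries for 10. For MRPS14, a small subunit protein, it was 1.77 kb under Vector and 1.33 kb under LINC00665, and its counts did not pass the threshold (log2 fold change -0.49; adjusted p = 0.065 by edgeR). Exons of 34 members share bases with another gene of the table, 13 on the same strand and 21 on the opposite strand. Same-strand cases described below include MRPL28 (TMEM8A), MRPL33 (BABAM2), MRPL46 (AC013489.1), MRPS16 (DNAJC9) and MRPS17 (NIPSNAP2). Whether the counting used strand is not given in the sources used here, so reads from such shared stretches cannot be assigned with certainty.

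Among large subunit proteins, MRPL51 showed the largest fall. This protein is specific to mitochondria, and its gene lies on chromosome 12 from 6491886 to 6493841 on the minus strand (GRCh38, GENCODE release 29). MRPL51 was at 154, 159 and 167 CPM in Vector 1 to 3 and at 40.5, 52.9 and 44.3 CPM in LINC00665 1 to 3. The groups lay far apart, and the log2 fold change was -1.64 (SE 0.16; adjusted p = 4.8e-05 by edgeR). Of its 1551 exon bases, 486 lie in NCAPD2 on the opposite strand, a condensin subunit gene whose own log2 fold change was -0.83 (SE 0.23; adjusted p = 0.012 by edgeR).

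MRPL35, the counterpart of bacterial L35, lies on chromosome 2 from 86199355 to 86213794 and shares no exon with another gene of the table. It was at 73.8, 56.6 and 71.8 CPM under Vector and at 18.5, 19.1 and 21.2 CPM under LINC00665, with no overlap and a log2 change of -1.62 (SE 0.16; adjusted p = 4.4e-05 by edgeR). MRPL24, the counterpart of an early assembly protein of bacteria, was at 62.8, 55.9 and 79.4 CPM and then at 23.0, 26.7 and 23.5 CPM, with a log2 change of -1.27 (SE 0.18; adjusted p = 3.5e-04 by edgeR). The Vector libraries varied more than the LINC00665 libraries for both genes.

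MRPL28, the counterpart of bacterial L28, fell from 123 ± 16.7 to 53.3 ± 4.05 CPM (SD, n = 3 each), or -1.05 on the log2 scale. MRPL40, which is specific to mitochondria, fell from 39.0 ± 2.47 to 16.6 ± 0.695 CPM, or -1.07, and MRPL50, also specific to mitochondria, fell from 24.1 ± 3.88 to 10.2 ± 0.977 CPM, again -1.07. MRPL15, the counterpart of bacterial L15, fell from 102 ± 32.7 to 42.6 ± 2.83 CPM, or -1.10, and its Vector libraries spanned 97.6, 71.9 and 137 CPM. In each of these 4 genes the groups did not overlap, and the calls held under all 16 alternative fits. The other lower large subunit genes ran from MRPL13 at -0.99 to MRPL44 at -0.55.

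Among higher large subunit genes, MRPL58 came first. Its product, also known as ICT1, is a peptidyl-tRNA hydrolase that became part of the large subunit and can free stalled ribosomes. MRPL58 was at 14.8, 11.9 and 18.5 CPM under Vector and at 26.8, 34.7 and 28.1 CPM under LINC00665, with no overlap. The log2 fold change was 1.15 (SE 0.21; adjusted p = 0.0015 by edgeR), and its gene lies on chromosome 17 from 75012670 to 75021261.

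The stalk of the large subunit, which recruits the GTPase factors of translation, was read from its base proteins MRPL10 and MRPL11 and from MRPL12. MRPL10 was at 52.6, 21.3 and 36.8 CPM under Vector and at 74.4, 66.9 and 50.2 CPM under LINC00665. Here Vector 1 lay above LINC00665 3, so the groups overlapped, and the log2 fold change of 0.96 (SE 0.31; adjusted p = 0.025 by edgeR) lost the threshold without LINC00665 1 (adjusted p = 0.079) and without LINC00665 2 (adjusted p = 0.097). MRPL12, which also binds the mitochondrial RNA polymerase, was at 109, 98.3 and 114 CPM and at 86.2, 112 and 92.6 CPM, with overlapping groups and a log2 change of 0.02 (SE 0.16; adjusted p = 0.91 by edgeR). Of the 1028 exon bases of MRPL12, 701 are shared on the same strand with AC139530.2, another gene of the table. MRPL11 had a log2 fold change of 0.52 and was not past the threshold (edgeR adjusted p = 0.097).

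MRPL18, the counterpart of a bacterial protein that binds 5S ribosomal RNA, was at 41.8, 34.4 and 48.1 CPM under Vector and at 62.1, 76.7 and 59.3 CPM under LINC00665. Its groups did not overlap, and the log2 fold change was 0.84 (SE 0.18; adjusted p = 0.0041 by edgeR). MRPL48, specific to mitochondria, rose from 16.1 ± 0.859 to 23.9 ± 2.49 CPM (SD, n = 3 each), with a log2 change of 0.74 (SE 0.16; adjusted p = 0.0039 by edgeR). Both calls held under all 16 alternative fits.

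The other higher large subunit calls were close to the threshold. MRPL49 was at 128, 133 and 78.5 CPM under Vector and at 154, 142 and 154 CPM under LINC00665, and Vector 3 stood apart from the other Vector libraries. Its log2 fold change was 0.57 (SE 0.21, adjusted p = 0.042 by edgeR). It missed the threshold without Vector 1 (adjusted p = 0.057) and without any 1 of the LINC00665 libraries (adjusted p from 0.10 to 0.11). Of the 3080 exon bases of MRPL49, 638 lie in FAU or SYVN1 on the opposite strand. On the log2 scale FAU was higher by 0.52 (adjusted p = 0.022 by edgeR) and SYVN1 by 1.21 (adjusted p = 0.0080 by edgeR). MRPL21 rose from 26.4 ± 3.45 to 34.4 ± 5.84 CPM (SD, n = 3 each; edgeR adjusted p = 0.030), and this was lost without Vector 1, Vector 2, LINC00665 2 or LINC00665 3 (adjusted p from 0.059 to 0.13). With the replicate number as a block, the call of MRPL21 was also lost (adjusted p = 0.077). MRPL32, which the m-AAA protease must cut before it joins the ribosome, rose from 17.6 ± 1.28 to 23.0 ± 2.24 CPM (SD, n = 3 each; edgeR adjusted p = 0.014) and lost the threshold without LINC00665 2 (adjusted p = 0.061) or LINC00665 3 (adjusted p = 0.070).

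The other large subunit genes described here did not pass the threshold. MRPL37, the highest of all members by mean FPKM, was at 235, 231 and 287 CPM and at 166, 186 and 182 CPM, so the groups did not overlap, but its log2 fold change of -0.33 (SE 0.15) did not pass (edgeR adjusted p = 0.076) except without Vector 2 (adjusted p = 0.049) and on total counts or FPKM. MRPL41, a protein specific to mitochondria, gave -0.34 (SE 0.15; adjusted p = 0.084 by edgeR) and passed without LINC00665 2 (adjusted p = 0.031) and on total counts or FPKM. MRPL34 and MRPL17, counterparts of bacterial L34 and L17, had the smallest differences, both 0.00 on the log2 scale with standard errors of 0.20 and 0.21. MRPL33, the counterpart of bacterial L33, was at 11.2, 6.94 and 10.7 CPM and at 7.26, 12.9 and 7.43 CPM, with overlapping groups. Of the 1539 exon bases of MRPL33, 324 are shared on the same strand with BABAM2, which was lower at -0.58 (SE 0.16; adjusted p = 0.013 by edgeR).

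In the small subunit, MRPS24 rose most. It is the counterpart of bacterial S3, which lines the channel where mRNA enters, and its gene lies on chromosome 7 from 43866558 to 43869893 on the minus strand. MRPS24 was at 41.6, 38.5 and 44.6 CPM under Vector and at 87.5, 123 and 97.9 CPM under LINC00665. The groups were well apart, and the log2 fold change was 1.47 (SE 0.18; adjusted p = 1.5e-04 by edgeR). A read-through gene on the same strand, URGCP-MRPS24, shares 606 of the 2613 exon bases of MRPS24 and stayed between 0.103 and 0.897 CPM in every library.

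MRPS6, the counterpart of bacterial S6, was at 43.7, 47.3 and 45.2 CPM under Vector and at 77.8, 96.9 and 75.8 CPM under LINC00665, without overlap. The log2 fold change was 1.04 (SE 0.16; adjusted p = 6.2e-04 by edgeR). The inositol transporter gene SLC5A3 shares exon bases with it on the same strand and was at 70.7 ± 31.0 and 88.1 ± 9.50 CPM (SD, n = 3 each), not past the threshold (edgeR adjusted p = 0.19). MRPS26, specific to mitochondria, was at 26.1, 21.1 and 38.9 CPM and at 41.4, 47.9 and 42.5 CPM, with a log2 change of 0.78 (SE 0.23; adjusted p = 0.017 by edgeR). It lost the threshold without Vector 1 (adjusted p = 0.063) or LINC00665 2 (adjusted p = 0.074).

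MRPS30 was the other higher gene with a small subunit name, and its product belongs to the large subunit. It was at 43.7, 40.5 and 46.7 CPM and at 57.6, 61.1 and 62.0 CPM, so the groups did not overlap, with a log2 change of 0.63 (SE 0.13; adjusted p = 0.0034 by edgeR).

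The largest fall among genes with a small subunit name was that of MRPS11, the counterpart of bacterial S11. MRPS11 was at 52.6, 54.5 and 49.5 CPM under Vector and at 15.7, 16.7 and 15.8 CPM under LINC00665. The spread within either label was small beside the gap, and the log2 fold change was -1.54 (SE 0.14; adjusted p = 3.4e-05 by edgeR). On chromosome 15 its start, at 88467453, lies 34 bases from that of MRPL46, at 88467419, and the genes point away from each other. MRPL46, a large subunit protein named here after its values were seen, was at 23.0, 20.7 and 22.7 CPM and at 9.05, 12.6 and 11.2 CPM, with a log2 change of -0.85 (SE 0.18; adjusted p = 0.0037 by edgeR). This pair was the only one among the members' head-to-head neighbours within 1000 bases in which both genes were members.

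MRPS16, the counterpart of bacterial S16, was at 117, 93.1 and 128 CPM and at 46.2, 48.9 and 51.3 CPM, with a log2 change of -1.05 (SE 0.16; adjusted p = 5.1e-04 by edgeR). MRPS7, which in bacteria organises the head of the small subunit, was at 125, 137 and 154 CPM and at 61.0, 69.2 and 57.5 CPM, with a log2 change of -0.98 (SE 0.16; adjusted p = 7.5e-04 by edgeR). In both genes the lowest Vector library lay well above the highest LINC00665 library. MRPS10, the counterpart of bacterial S10, fell from 78.4 ± 4.19 to 41.0 ± 1.09 CPM, and MRPS9, the counterpart of S9, from 27.8 ± 5.53 to 13.9 ± 1.44 CPM (SD, n = 3 each).

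MRPS28 and MRPS17 fell less surely. MRPS28 was at 18.4, 11.6 and 21.6 CPM under Vector and at 7.97, 9.11 and 8.53 CPM under LINC00665, with a log2 change of -0.85 (SE 0.24; adjusted p = 0.015 by edgeR) that missed the threshold without LINC00665 1 (adjusted p = 0.061) or LINC00665 3 (adjusted p = 0.053). MRPS17 gave -0.78 (SE 0.21; adjusted p = 0.011 by edgeR) and missed it without LINC00665 1 (adjusted p = 0.053). The metabolic adaptor MRPS36 was at 12.2, 12.4 and 15.1 CPM and at 7.88, 7.72 and 6.33 CPM, or -0.69 (SE 0.20; adjusted p = 0.014 by edgeR), and missed it without LINC00665 3 (adjusted p = 0.060).

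The 3 paralogs of bacterial S18 were set side by side, since their products sit at different places of the ribosome. MRPS18A, in the large subunit, was at 47.8, 55.8 and 61.5 CPM and at 41.5, 53.2 and 47.4 CPM, with overlapping groups and a log2 change of -0.05 (SE 0.17; adjusted p = 0.80 by edgeR). MRPS18B was at 80.1, 65.9 and 113 CPM and at 46.2, 61.4 and 50.02 CPM, or -0.55 (SE 0.22; adjusted p = 0.060 by edgeR), and it passed without Vector 2 (adjusted p = 0.016) or LINC00665 2 (adjusted p = 0.048) and on total counts or FPKM. MRPS18C was at 16.2, 13.96 and 14.6 CPM and at 9.53, 10.7 and 10.9 CPM, or -0.36 (SE 0.16; adjusted p = 0.085 by edgeR), and passed on total counts (adjusted p = 0.023). Neither of the latter genes overlapped between labels, none of the 3 passed in the fit on the trimmed-mean scale, and the differences between the paralogs were not tested.

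MRPS15 and MRPS12 were near no change. MRPS15, the highest in mean FPKM among genes with a small subunit name, was at 114, 104 and 137 CPM and at 90.0, 114 and 90.8 CPM (log2 fold change -0.10, SE 0.17). MRPS12, part of the decoding centre, gave 0.02 (SE 0.17). MRPS27, an RNA-binding protein of the small subunit singled out after its values were seen, was at 207, 23.0 and 180 CPM under Vector and at 117, 98.7 and 64.8 CPM under LINC00665. The library Vector 2 stood far below the other Vector libraries for this gene, and the log2 fold change of -0.37 had the largest standard error of the members, 0.64. MRPS27 passed the threshold without Vector 2 (edgeR adjusted p = 0.013).

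**Figure D4:**
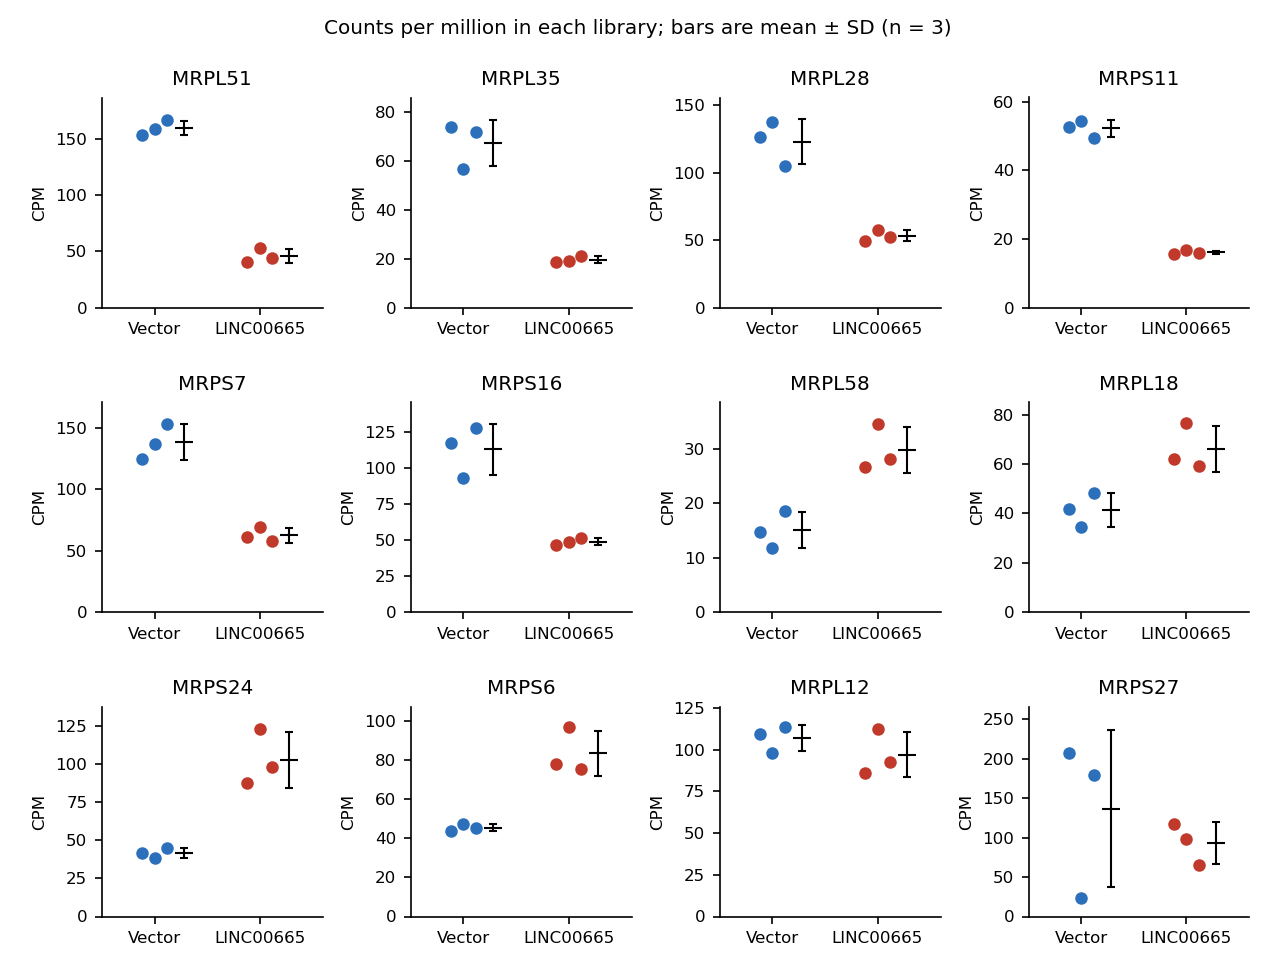
CPM of 12 members in each library, with 1 point per library and the mean ± SD (n = 3) to the right of the points. MRPL51, MRPL35, MRPL28, MRPS11, MRPS7 and MRPS16 were lower under LINC00665, MRPL58, MRPL18, MRPS24 and MRPS6 were higher, MRPL12 overlapped, and MRPS27 was at 23.0 CPM in Vector 2. The 12 genes were chosen after their values were seen.

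Across members, libraries of the same label were alike and libraries of different labels less so. Pearson's r of log2 CPM over the 78 members, given as a description across genes that share libraries, was 0.89 to 0.96 within Vector, 0.98 within LINC00665 for all 3 pairs and 0.73 to 0.82 for the 9 pairs between labels. Over all 13552 genes tested, the corresponding values were 0.96 to 0.98, 0.99 and 0.72 to 0.74.

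Position in the genome was described after the values were seen. Chromosome 11 held 7 members, of which MRPL16, MRPL21, MRPL48 and MRPL49 were higher and 0 were lower, with a median log2 fold change of 0.52. The other 770 genes tested there had a median of 0.62, and 52.3% of them were higher, which is the direction of these members. The count of 4 fell to 1, MRPL48, without Vector 1, LINC00665 2 or LINC00665 3, and to 2 without LINC00665 1 or Vector 2. Chromosome 2 held 8 members, of which 6 were lower, MRPL19, MRPL30, MRPL35, MRPL44, MRPS5 and MRPS9, beside a median of -0.28 and 39.8% lower among the other genes there. Without Vector 1, LINC00665 1 or LINC00665 2, 5 of them passed and MRPL19 was lost. On chromosome 8 the 3 members MRPL13, MRPL15 and MRPS28 were all lower. The other 461 genes tested there had a median of 0.11, with 40.1% of them higher and 27.8% lower. Without LINC00665 1 or LINC00665 3, 2 of the 3 members passed, MRPL13 and MRPL15. Over the 78 members, the log2 fold change and the median of the tested genes within 5 Mb had a Pearson's r of 0.37, as a description, and the same sign in 47. The part of a shift along whole chromosomes in the members' values was not tested.

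**Figure D5:**
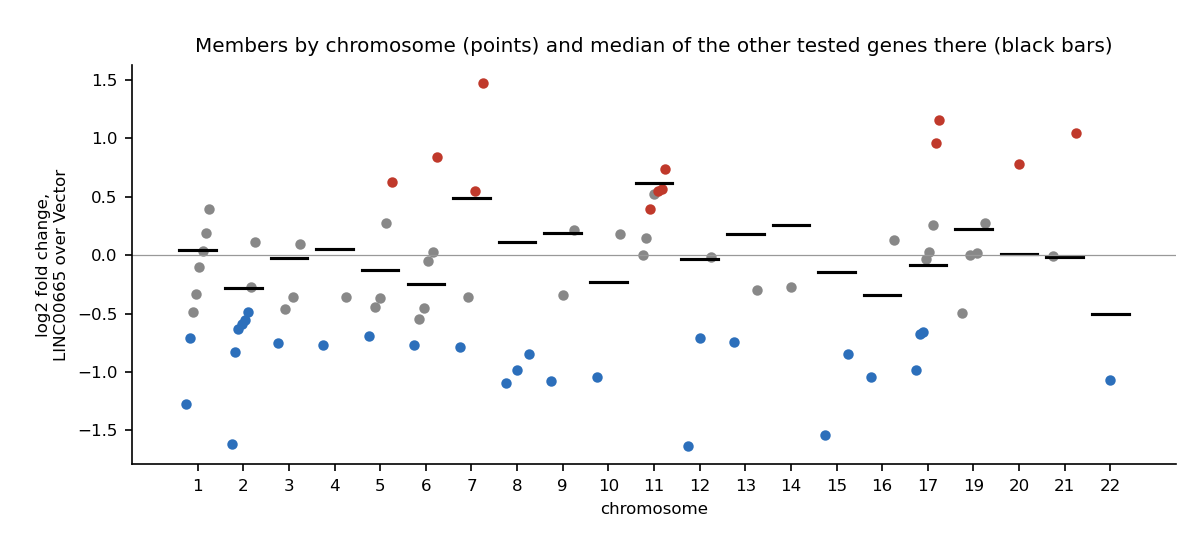
Log2 fold change (LINC00665 over Vector) of each member by chromosome, in red where higher, blue where lower and grey where not past the threshold, with the median of the other tested genes of the chromosome as a black bar. The 7 members on chromosome 11 lie at or above 0 beside a bar at 0.62, and the 3 on chromosome 8 lie near -1 beside a bar at 0.11.

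Further genes of mitochondrial translation were read from lists, whose counts stand beside 63.5% called, 34.2% higher and 29.3% lower among all genes. Of the 5 mitochondrial ribosomal proteins that carry other names, 0 were higher and 1 was lower, with a median log2 fold change of -0.19. PTCD3, a small subunit protein with repeats that bind RNA, was at 72.5, 67.2 and 66.6 CPM and at 38.3, 37.3 and 35.9 CPM, or -0.72 (SE 0.13; adjusted p = 0.0015 by edgeR). DAP3, a GTP-binding protein of the small subunit, stayed at 182 ± 22.2 and 157 ± 9.20 CPM (SD, n = 3 each), with overlapping groups. GADD45GIP1 gave -0.29 and CHCHD1 gave -0.19, neither past the threshold.

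Of 28 genes listed as assembly factors of the mitochondrial ribosome, LYRM4 and BOLA3 among them, 7 were higher and 11 lower. Their median log2 fold change was -0.07. The share called, 64.3%, was near that of the table (63.5%). RPUSD3, a pseudouridine synthase acting on mitochondrial RNA, was at 36.3, 37.4 and 32.7 CPM and at 168, 165 and 179 CPM, or 2.43 (SE 0.14; adjusted p = 2.4e-06 by edgeR). FASTKD2, an RNA-binding protein needed for the large ribosomal RNA, was at 42.7, 40.1 and 45.5 CPM and at 12.1, 10.6 and 12.2 CPM, or -1.72 (SE 0.14; adjusted p = 2.1e-05 by edgeR). YBEY, an endoribonuclease, fell from 6.44 ± 0.227 to 1.41 ± 0.0789 CPM (SD, n = 3 each). Each of these 3 genes had a larger absolute log2 fold change than any of the 78 members.

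Of 16 translation factors and related genes, 1 was higher and 5 lower (37.5% called, beside 63.5% of all genes), with a median log2 fold change of -0.21. PDF, the peptide deformylase, fell from 17.3 ± 1.28 to 3.33 ± 0.343 CPM (SD, n = 3 each), or -2.21 (SE 0.18; adjusted p = 2.1e-05 by edgeR). The GTPase GUF1 fell by 1.22 and the inner membrane protein LETM1 by 1.01 on the log2 scale. Among 20 genes of mitochondrial transcription and RNA handling, 2 were higher and 9 lower (55% called), with a median of -0.44. FASTKD1 fell by 1.88, the tRNA 3′ processing enzyme ELAC2 by 1.70 and TFAM, which packages and transcribes mitochondrial DNA, by 1.23 on the log2 scale.

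The nuclear regulators of mitochondrial genes held 6 higher and 3 lower genes of 12, or 50% higher and 25% lower beside 34.2% and 29.3% of all genes, with a median log2 fold change of 0.42. PPARGC1A, a coactivator of mitochondrial biogenesis, had 1 count over the 3 Vector libraries and 669 counts over the LINC00665 libraries, or 10.8 ± 2.29 CPM (SD, n = 3). The nuclear receptor gene ESRRA gave 1.83 and MYC, a transcription factor of growth, gave 1.99 on the log2 scale. YY1 itself was at 164, 164 and 150 CPM and at 173, 154 and 177 CPM and did not pass (edgeR adjusted p = 0.14). GABPA was lower at -0.73 (SE 0.18; adjusted p = 0.0068 by edgeR), and its groups did not overlap. Of the related genes in the list, GABPB1 was higher at 0.78 (SE 0.17, adjusted p = 0.0034 by edgeR). GABPB2 was lower at -1.72 (SE 0.35, adjusted p = 0.0027 by edgeR). NRF1 was at 18.8, 16.1 and 24.01 CPM and at 26.0, 23.2 and 25.1 CPM, with groups that overlapped. Its log2 fold change of 0.50 passed (adjusted p = 0.039 by edgeR), but it held in 7 of 16 alternative fits and missed the threshold without any 1 library except Vector 3 (adjusted p from 0.071 to 0.12).

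Of the 13 mitochondrially encoded genes whose products the mitochondrial ribosome makes, 2 were higher and 6 lower (61.5% called, beside 63.5% of all genes). Their median log2 fold change was -0.48. These are counts of genes, and genes that share a transcript were not merged. MT-CYB, encoding cytochrome b, was at 3174, 4048 and 3351 CPM and at 1470, 1142 and 1655 CPM, or -1.15 (SE 0.17; adjusted p = 5.1e-04 by edgeR). MT-ND5, a complex I subunit, gave -1.13 and MT-CO3, a cytochrome oxidase subunit, -0.60. The higher genes were MT-CO2, another cytochrome oxidase subunit, at 0.57 (adjusted p = 0.0091 by edgeR) and MT-ND4, of complex I, at 0.49 (adjusted p = 0.0099 by edgeR). MT-CO2 kept its call in 16 of 16 alternative fits and MT-ND4 in 15. MT-ND4L gave -0.00011 and MT-ATP6 0.04, neither past the threshold, and MT-ATP8 was lower at -0.49 (SE 0.17; adjusted p = 0.035 by edgeR).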

How the data were processed

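RNA-seq of 6 libraries (3 labelled Vector, 3 labelled LINC00665) was deposited as 1 table. The authors deposited expected counts per gene and library, not normalised, and FPKM values, which divide by the length of the gene and the size of the library, per the file headers. HISAT2 2.0.4 and hg38 were used per the submitters' processing notes. Not given in the sources used here are the counting tool, the annotation and any use of strand. Rounded expected counts passed filterByExpr, were scaled by TMM (trimmed mean of M-values) and entered the quasi-likelihood test of edgeR 4.0.16 (R 4.3.3), with no covariate and Benjamini-Hochberg adjustment over 13552 genes. A standard error is the log2 fold change over the square root of F. CPM were expected counts over the library total. The replicates are 3 independent experiments by the series' design text, and where cultures were not separate the p-values measure only the spread between libraries.

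The members and lists were chosen with earlier results of these data known. Named with values, per subunit name, were up to 7 called genes per direction by absolute log2 fold change and the 2 highest in FPKM. Added to these were the 2 nearest to 0 and 9 fixed genes, and of each other list the 3 genes of smallest p. Further genes were named outside this rule, after their values were seen. These were MRPL1, MRPL11, MRPL13, MRPL38, MRPL44, MRPL46, MRPS14, MRPS27, DAP3, LYRM4, BOLA3, GABPA, GABPB1, GABPB2, NRF1, YY1, MT-CO2, MT-ND4, MT-ND4L, MT-ATP6, MT-ATP8 and the genes listed by chromosome. GENCODE release 29 gave positions and RefSeq (GRCh38.p14) promoters. No 2 libraries of a label agreed within sampling noise (chi-square per degree of freedom of at least 10.2), so none were merged. Alternatives were size factors, total counts, filters, DESeq2 1.42.0, limma 3.58.1 (voom, and trend on log2(FPKM + 1) or log2(FPKM + 0.1)), a replicate block, an adjusted p of 0.01 and each library left out. The test was checked on simulated data with far fewer changed genes than were called here, so this check does not reach the choice of scaling. A planned comparison of protein sequences was not run.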

Additional observations from a re-analysis of the deposited data

How the results depend on the processing

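Against 8 higher large subunit genes and 12 lower small subunit genes, scaling by total counts gave 3 higher large subunit genes, both FPKM fits 5, and an adjusted p of 0.01 gave 3 higher large and 7 lower small subunit genes. The median log2 fold change moved to -0.44 (large) and -0.55 (small) with total counts and to -0.053 (large) by structure. The ratio of large to small sums was 1.65 (Vector) and 1.61 (LINC00665); it was 1.83 and 1.86 by structure, 2.03 and 1.79 on FPKM, 0.948 and 0.965 from geometric means, and, added after the data were seen, 1.79 and 1.74 without MRPS27 and 1.97 and 2.02 on FPKM without MRPL51 and MRPS24. The part of any 1 cause in these changes was not tested. Leaving out 1 library gave 4142 to 5033 higher and 3275 to 4225 lower genes in all, 3 to 9 higher and 14 to 19 lower large subunit genes, 3 to 5 higher and 10 to 15 lower small subunit genes, medians of -0.38 to -0.19 and -0.51 to -0.31, and ratios of 1.58 to 1.70 (Vector) and 1.59 to 1.62 (LINC00665). With the replicate block, 4419 genes were higher and 3505 lower, with 6 higher and 15 lower large subunit genes and 4 and 12 small subunit genes; 37 of the 40 member calls were kept, and MRPL1, MRPL16 and MRPL21 were lost. Same-numbered libraries correlated in their deviations at 0.15, -0.13 and -0.15, so the numbers were not taken as pairs. Of the other lists, the lower count of ribosomal proteins with other names went from 1 to 2 (total counts, both FPKM fits, without LINC00665 replicate 2). Transcription and RNA handling went from 2 higher to 1 under 9 alternatives and from 9 lower to 5 at 0.01. The mitochondrially encoded genes went from 6 lower to 3 at 0.01 and from 2 higher to 1 on log2(FPKM + 0.1). Among the named members and groups, 0 called results changed sign. The fewest expected counts of a member over a label were 204 (MRPL1, LINC00665). The standard errors of the members' log2 fold changes ran from 0.13 to 0.64, with a median of 0.18.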
